A study of Rattus with 6 samples.

Results

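The genes described here are 47 components of Wnt signalling, comprising ligands, receptors, secreted antagonists, cytoplasmic mediators, transcription factors and targets. They were chosen by symbol and not by their values. Of these, 44 had a row among the 16690 genes of the deposited table, and Rspo2, Dkk1 and Notum are not analysed here. RNA sequencing had been done on mesenchymal stem cells cultured from the marrow of the femur and tibia, a plastic-adherent population that includes progenitors of bone-forming cells and of fat cells. The donors were Sprague Dawley rats, all labelled wild-type. The disease group had chronic kidney disease (CKD) and gave 3 libraries, and the control group was labelled healthy and gave another 3. How the disease was induced and how old the rats were is not given in the sources used here. The labels name RNA of exosomes in the extract protocol and RNA of the cells in the design text, and the libraries are called cell libraries here after their titles. Groups follow titles, library names and column codes. The library called CKD replicate 3 carries that number in its description and column code and the number 4 in its title. The disease model tag says the opposite for CKD replicate 1 and control replicate 2. The names of CKD replicates 1 and 3 share a start, as do those of control replicates 1 and 2, so the labels do not tie each library to its own animal, and p-values measure the spread between libraries, which may be partly technical.

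Wnt proteins are secreted lipid-modified ligands that bind Frizzled receptors. In the canonical branch a Frizzled receptor and a co-receptor, Lrp5 or Lrp6, together stop the destruction complex from degrading beta-catenin, which then acts with TCF/LEF factors in the nucleus. Other branches run through Frizzled receptors with Ror or Ryk receptors and change cell polarity and movement. In the skeleton, canonical signalling favours bone formation by mesenchymal cells, and secreted antagonists restrain it.

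Levels are given in FPKM, fragments scaled to the length of the gene and the depth of the library, a scale per length that allows levels of different genes to be compared. Levels in each library are listed in the order of replicates 1, 2 and 3. Each library held between 34404037 and 46892613 fragments, as recovered from the table. The libraries did not separate by group alone. Across genes, CKD replicates 2 and 3 correlated at r = 0.996 and control replicates 2 and 3 at r = 0.998. CKD replicate 1 was nearer to every control than to either other CKD library. Its r was 0.967, 0.950 and 0.946 with control replicates 1, 2 and 3, and 0.935 and 0.944 with CKD replicates 2 and 3. Of 10 stromal markers, 8 to 10 reached 1 FPKM in each library, but their levels were not even. Thy1, which encodes CD90, was at 505 to 572 FPKM in CKD and 590 to 801 in control. Eng was at 10.8, 20.4 and 21.8 FPKM in CKD, against 11.8, 83.4 and 88.8 in control. Vcam1 lay the other way, at 2.12, 8.78 and 6.94 FPKM against 1.80, 0.829 and 1.56. Cd34 was at most 1.20 FPKM, and Ptprc, which encodes CD45, was at 15.5 and 11.4 FPKM in CKD replicates 2 and 3 and at most 1.33 elsewhere. Summed FPKM over 17 markers of haematopoietic cells and macrophages was 63.1, 1096 and 761 in CKD, against 135, 13.6 and 10.5 in control. Of these markers, C1qc was at 0 in control replicates 2 and 3, and Adgre1 and C1qb in control replicate 3. Summed FPKM over 15 proliferation genes was 129 to 193 in CKD and 54.5 to 80.4 in control, and over 6 adipocyte genes 17.4 to 178 and 6.14 to 13.8. Endothelial markers summed to 6.55 to 13.1 FPKM in CKD and 7.50 to 13.9 in control over 8 genes, and most of each sum was Egfl7. Tie1 was at 2.48 and 2.31 FPKM in CKD replicates 2 and 3 and at most 0.154 elsewhere. Esam was at 2.72 and 2.18 FPKM there and at most 0.277 elsewhere. Tek was at 0.0954 and 0.0864 FPKM there, against 2.25 and 2.31 in control replicates 2 and 3. The remaining markers were at most 0.172 FPKM, with Kdr or Cdh5 at 0 in 4 of the 6 libraries. In bulk RNA, fewer cells of a type and less RNA per cell cannot be told apart.

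Receptor transcripts carried the changes that passed the test. The Frizzled receptor genes Fzd1 and Fzd6 and the co-receptor gene Lrp6 fell in CKD, Fzd1 and Lrp6 to 52.0% and 50.02% of their control means and Fzd6 to 24.7%. No Wnt gene rose past the threshold. Of the 44 genes, 34 reached at least 1 FPKM in at least 3 libraries and were tested with limma on log2(FPKM + 1), with Benjamini-Hochberg adjustment over all 10638 tested genes at 0.05. Among those genes 2.07% were called, 1.33% higher and 0.733% lower, against 0 higher and 3 lower of the 34. Groups did not overlap for 8 of the 34 (23.5%), against 27.8% of all tested genes. These were 3 genes higher and 5 lower in CKD, against 18.3% and 9.59% of all tested genes. Among these 8, Fzd6 reached the filter only through control libraries and Fzd3 only through CKD libraries, which by itself fixed their lack of overlap. The median log2 fold change, CKD minus control, was -0.01 for the 34 and 0.05 for all tested genes. An unadjusted limma p under 0.05 was reached by 7 of the 34 and by 22.1% of all tested genes. Fold changes on this scale understate the change of low genes.

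Of the 3 ligand genes among the 44, Wnt5a, best known for signalling without beta-catenin, was the most abundant. Outside the 44, Wnt16 was above Wnt5a in control replicate 1, at 39.1 FPKM, and Wnt9a was at 1.83 to 4.68 FPKM over all libraries. Wnt5a stood at 7.45, 29.3 and 32.9 FPKM in CKD and at 4.76, 11.7 and 11.99 in control. CKD replicates 2 and 3 were the highest, and CKD replicate 1 lay inside the control range. On the log2 scale the difference was 1.06 ± 0.62 (SE; limma adjusted p = 0.364), with a 95% interval from -0.48 to 2.61. Its close relative Wnt5b did not reach the filter, at 0.503, 0.207 and 0.258 FPKM in CKD and 0.431, 0.408 and 0.290 in control, and its groups overlapped. Wnt11, another ligand of the noncanonical branch, rested on 5 fragments in CKD replicate 1 and on 1, 4 and 2 in control, which are 0.0406 FPKM and 0.00668, 0.0300 and 0.0164 FPKM. It was at 0 in CKD replicates 2 and 3, where 3 fragments, taken as the lowest count told from 0, would have been worth 0.0273 and 0.0218 FPKM.

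Both genes needed to make and release ligands were expressed at levels that varied less between libraries. Porcn encodes the acyltransferase that attaches the lipid to Wnt proteins, and Wls encodes the carrier that takes them to the cell surface. Wls was among the most abundant of the 44 transcripts and stood at 162, 117 and 121 FPKM in CKD and at 194, 161 and 156 in control. The replicate 1 library was the highest of each group, and the groups overlapped. The difference of -0.36 ± 0.16 (SE) in log2 did not pass (limma adjusted p = 0.259). Porcn was 12.3 to 13.3 FPKM in CKD and 13.4 to 20.2 in control, where control replicate 1 was the highest. The Porcn groups did not overlap, with a gap of 0.0619 FPKM between them, and the log2 fold change was -0.27 ± 0.16 (SE, limma adjusted p = 0.383).

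Among the Frizzled receptors, which are membrane proteins with a cysteine-rich domain that holds the Wnt ligand, Fzd1 was by far the most abundant. It made up 68.3% to 75.8% of the summed Frizzled FPKM in control and 51.8% to 71.3% in CKD. Fzd2 and Fzd7 were next in every library but in different amounts, and the other 5 receptors were each at most 7.91 FPKM. The summed Frizzled level was 159, 135 and 132 FPKM in CKD, below all controls at 210, 257 and 263. Fzd1 accounted for most of that gap, as the stacked levels by library show.

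**Figure D1:**
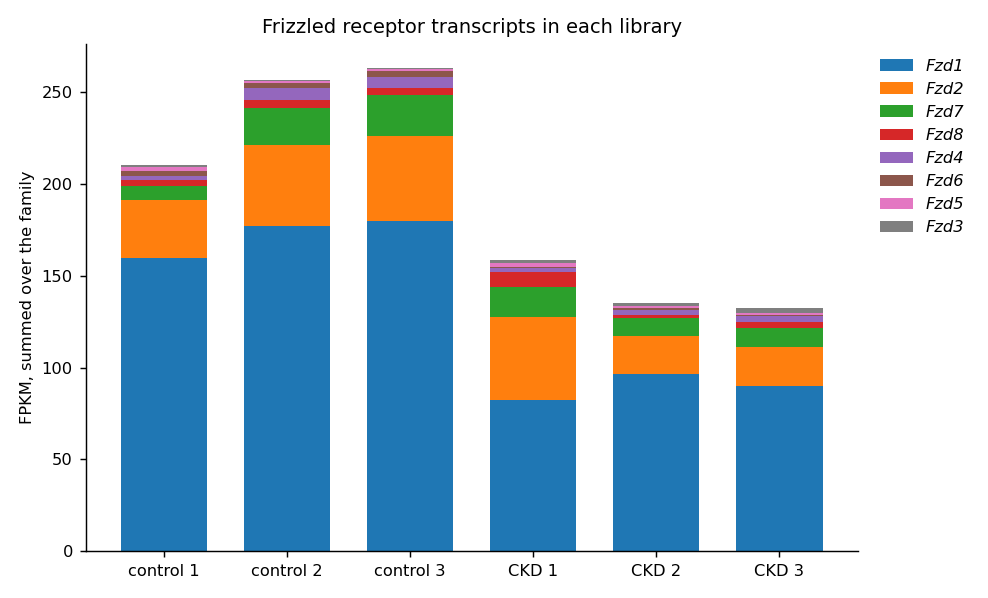
Stacked bars give FPKM of the 8 Frizzled genes in each of 6 libraries (vertical axis, summed FPKM), with controls on the left. Fzd1 is the largest part of every bar, at 160 to 180 FPKM in control and 82.1 to 96.5 in CKD, and the summed level is lower in all CKD libraries.

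Fzd1 stood at 82.1, 96.5 and 90.1 FPKM in CKD and at 160, 177 and 180 in control. All CKD values were below all control values, and the gap of 63.1 FPKM between the groups was wider than the range within either. Means were 89.6 ± 7.21 in CKD and 172 ± 11.0 in control (SD, n = 3 each). The log2 fold change was -0.94 ± 0.095 (SE, limma adjusted p = 0.0219). The authors' deposited table gives a log2 fold change of -1.03 for Fzd1 with a q-value of 6.53e-24. Fzd1 was 51.5% of control replicate 1 in CKD replicate 1, where summed haematopoietic markers were 63.1 FPKM against 135. It was 52.3% for the means of replicates 2 and 3, where these markers were far higher in CKD. Of the 15 proliferation genes 8 (53.3%) rose in CKD by the same test, against 1.33% of all tested genes. The summed levels of the proliferation and adipocyte genes were higher in all CKD libraries than in any control. Not every adipocyte gene was. Pparg and Cebpa were higher in every CKD library than in any control. Fabp4 and Lpl, the highest in CKD replicates 2 and 3, were at 4.18 and 5.83 FPKM in CKD replicate 1, against 4.23 and 5.99 in control replicate 1. The part of the haematopoietic, proliferation and adipocyte genes in the results for Fzd1, Fzd6 and Lrp6 was not tested.

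Fzd6, a receptor known for planar polarity, was a low transcript with 140 to 158 fragments per library in CKD and 595 to 713 in control. Its levels were 0.803, 0.798 and 0.665 FPKM in CKD, against 2.49, 3.02 and 3.65 in control. All CKD values were below all control values, and each CKD library was near the same low level. The log2 fold change was -1.20 ± 0.13 (SE, limma adjusted p = 0.0231), and on the linear scale the control mean was 4.04 times the CKD mean. Fzd6 reached the filter of 1 FPKM only through its control libraries, which by itself fixed the lack of overlap. Without a filter on low values its limma adjusted p was 0.0356. The authors' deposited table gives a log2 fold change of -2.10 for Fzd6 with a q-value of 2.71e-17. Fzd6 was 32.3% of control replicate 1 in CKD replicate 1 and 21.9% for the means of replicates 2 and 3.

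Fzd3, a receptor of axon guidance and cell polarity, lay the other way. It stood at 1.60, 1.77 and 2.29 FPKM in CKD and at 0.945, 0.357 and 0.493 in control. No value overlapped, although control replicate 1 was about midway to the CKD level. The filter was reached only through CKD libraries, which by itself fixed the lack of overlap. The log2 fold change of 0.86 ± 0.17 (SE) did not pass (limma adjusted p = 0.0718). It passed without CKD replicate 1 (limma adjusted p = 0.0392) and without control replicate 1 (limma adjusted p = 0.0216). In the authors' deposited table Fzd3 was higher in CKD with a q-value of 0.00630 (log2 fold change 1.57).

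The other 5 Frizzled genes overlapped between the groups. Fzd2 was 45.2, 20.7 and 21.0 FPKM in CKD, against 31.6, 44.2 and 46.1 in control. CKD replicate 1 thus had the control level, while the other CKD libraries had less than any control, and the difference passed when CKD replicate 1 was left out (limma adjusted p = 0.0378, against 0.381 with all libraries). Fzd7, which is close to Fzd1 and Fzd2 in sequence, had a similar pattern with 16.7, 9.62 and 10.5 FPKM in CKD and 7.53, 20.4 and 22.4 in control. Its first control library was the lowest of all, and the log2 fold change was -0.33 ± 0.43 (SE, limma adjusted p = 0.698). Fzd4, a receptor of Norrin as well as of Wnt ligands, was 2.28 to 3.35 FPKM in CKD and 2.33, 6.08 and 5.71 in control, and passed as lower without control replicate 1 (limma adjusted p = 0.0305, against 0.362). Fzd8 ranged from 2.00 to 7.91 FPKM in CKD and from 3.66 to 4.50 in control. Fzd5 ranged from 1.24 to 2.02 FPKM in CKD and from 0.923 to 2.33 in control. For Fzd8 and Fzd5 the limma adjusted p-values were 0.924 and 0.849, with 95% intervals of the log2 difference from -1.07 to 0.90 and from -0.53 to 0.73.

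**Figure D2:**
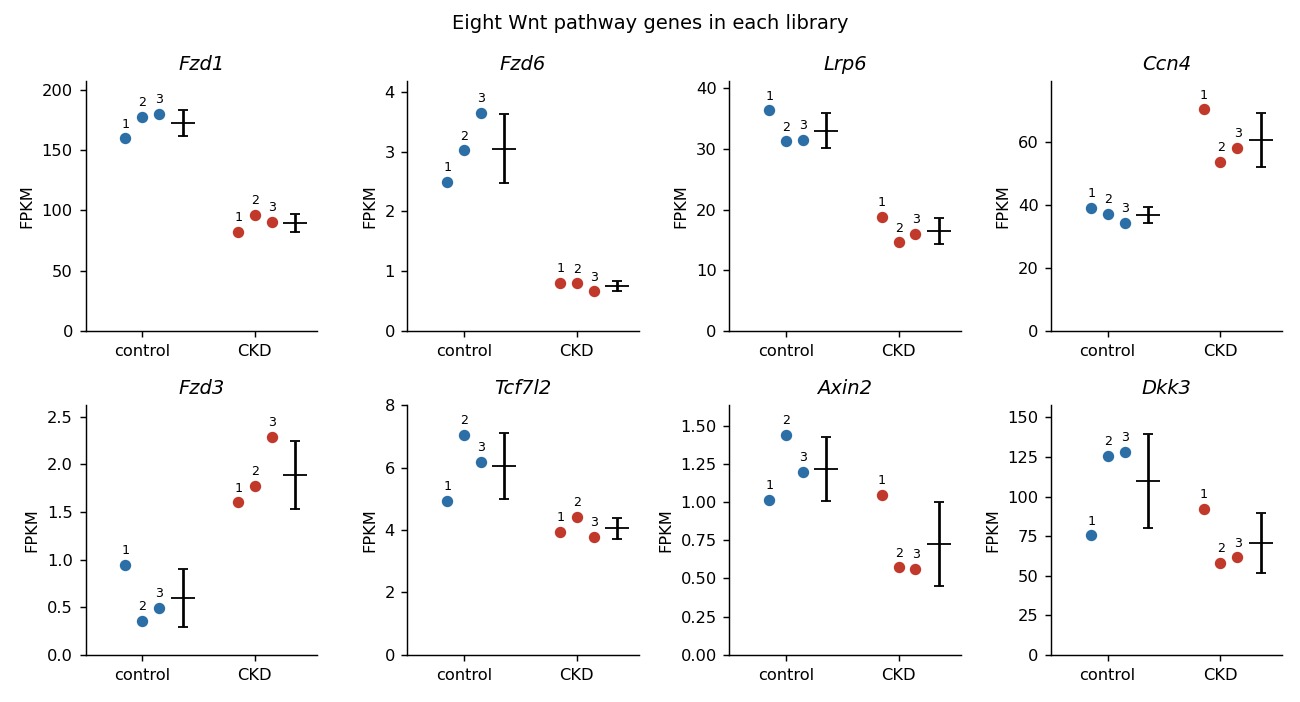
Points give FPKM in each library for the 3 genes that passed the test and the 5 with the next lowest p, with the replicate number above each point and the mean ± SD of the 3 libraries beside them, on linear axes that start at 0. Fzd1, Fzd6, Lrp6 and Tcf7l2 are lower and Ccn4 and Fzd3 higher in every CKD library than in any control, while the groups of Axin2 and Dkk3 overlap.

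Of the canonical co-receptor genes 1 passed the test and 1 did not, and the difference between them was not tested. Lrp6 encodes the co-receptor whose phosphorylated tail recruits Axin, and it stood at 18.9, 14.6 and 16.1 FPKM in CKD and at 36.3, 31.2 and 31.4 in control. The highest CKD value was well below the lowest control value. Means were 16.5 ± 2.16 in CKD and 33.0 ± 2.88 in control (SD, n = 3 each), and the log2 fold change was -0.96 ± 0.12 (SE, limma adjusted p = 0.0344). Lrp6 was 51.9% of control replicate 1 in CKD replicate 1 and 48.9% for the means of replicates 2 and 3. The authors' deposited table gives a log2 fold change of -1.08 for Lrp6 with a q-value of 8.87e-08. Lrp5, which does the same task, was 8.70 to 9.61 FPKM in CKD and 7.42 to 9.53 in control. Its log2 fold change was 0.13 ± 0.11 (SE, limma adjusted p = 0.502), with a 95% interval from -0.13 to 0.40. Lrp6 was therefore 1.67 to 2.11 times the level of Lrp5 in CKD libraries and 3.81 to 4.21 times in controls, a ratio chosen after its values were seen.

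The calls of Fzd1, Fzd6 and Lrp6 were lost without some single libraries and under some groupings, while in the fits without 1 library the fold changes moved little. None of the 3 passed when replicate 2 or 3 of CKD, or replicate 2 or 3 of control, was left out. The limma adjusted p in these 4 fits, in that order, was 0.115, 0.176, 0.125 and 0.162 for Fzd1, 0.154, 0.177, 0.125 and 0.145 for Fzd6, and 0.161, 0.210, 0.135 and 0.188 for Lrp6. In those 4 fits between 6 and 9 genes were called in the whole table. All 3 passed without CKD replicate 1 or without control replicate 1, and each of these fits called 8 of the 34 Wnt genes, against 15.1% and 12% of all tested genes. Over the 6 fits that each leave out 1 library the log2 difference ran from -0.99 to -0.88 for Fzd1, from -1.30 to -1.09 for Fzd6 and from -1.06 to -0.88 for Lrp6. Without both libraries whose disease model tag disagrees, Lrp6 passed (limma adjusted p = 0.0458), and Fzd1 and Fzd6 did not (limma adjusted p = 0.0568 and 0.0662). With groups taken from that tag no gene of the table was called by limma, 641 had an unadjusted p under 0.05, and the log2 fold changes of Fzd1, Fzd6 and Lrp6 were -0.20, -0.43 and -0.50. With libraries that share a name start averaged, which left 2 against 2, none of the 3 passed (limma adjusted p = 0.0703 for each).

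The receptor tyrosine kinase family of noncanonical signalling gave no call. Ryk, an atypical Wnt receptor, was the most abundant of these genes, at 62.8 to 74.0 FPKM in CKD and 70.8 to 80.2 in control (limma adjusted p = 0.414, log2 fold change -0.14 ± 0.09 SE). Ror2, the receptor of Wnt5a, was 13.9, 7.36 and 7.92 FPKM in CKD, against 14.5, 7.47 and 7.81 in control. Both first replicates were near each other and above all other libraries, and the log2 fold change was -0.02 with a 95% interval from -0.82 to 0.78. Ror1, its relative, was lowest in those same libraries, at 1.29 FPKM in CKD replicate 1 and 0.549 in control replicate 1, against 1.72 to 2.31 elsewhere.

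R-spondins are secreted proteins that raise the number of Frizzled receptors at the surface. They bind Lgr receptors and hold back the ubiquitin ligases Rnf43 and Znrf3. Among the 44 genes Lgr4 was the only tested gene of this axis, while Rspo1 and Lgr5, which are outside them, were tested too. Lgr4 stood at 10.6, 6.07 and 6.73 FPKM in CKD, against 7.38, 7.03 and 6.90 in control (limma adjusted p = 0.829, log2 fold change 0.09 ± 0.19 SE). CKD replicate 1 was the highest and the other CKD libraries the lowest of all. Znrf3 stood at 0.257, 0.134 and 0.148 FPKM in CKD and at 0.2003, 0.161 and 0.120 in control. Rnf43 stood at 0.0325, 0.0364 and 0.0116 FPKM in CKD and at 0.00890, 0.0620 and 0.0676 in control. Both ligase genes overlapped between the groups. Rspo3 was read with 31, 3 and 17 fragments in CKD, against 0, 1 and 1 in control, which are levels of 0.593, 0.0644 and 0.292 FPKM and of 0, 0.0177 and 0.0193 FPKM. The groups did not overlap, and all controls were under the floor of 3 fragments, which CKD replicate 2 only equalled. The authors' deposited table lists Rspo3 as higher in CKD with a q-value of 0.0271.

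Secreted antagonists were dominated by Sfrp1 and Dkk3. Sfrp1 encodes a decoy that binds Wnt proteins through a Frizzled-like domain. Its fold change had the largest SE of the 34 tested genes, with 26.8, 298 and 251 FPKM in CKD, against 10.2, 109 and 108 in control. The first replicate was the lowest of each group, and CKD replicate 1 lay below control replicates 2 and 3. Its log2 difference was 1.32 ± 1.29 (SE, limma adjusted p = 0.583). Within replicate 1 the CKD level was 262% of the control level, and for the means of replicates 2 and 3 it was 253%.

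Dkk3 belongs by sequence to the Dickkopf family, whose other members block Lrp5 and Lrp6, though its own role in the pathway is less clear. It stood at 92.2, 58.3 and 61.6 FPKM in CKD and at 75.5, 125 and 128 in control. The first replicates lay between the remaining CKD and control libraries, and the groups overlapped. Its log2 difference was -0.62 ± 0.27 (SE, limma adjusted p = 0.257). By a ratio also chosen after its values were seen, Sfrp1 was at 0.290 times the level of Dkk3 in CKD replicate 1 and 0.135 times in control replicate 1, against 4.08 to 5.11 times in the other CKD libraries and 0.845 to 0.871 times in the other controls.

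Sfrp4, a further decoy of the same family, was 3.27, 9.20 and 6.97 FPKM in CKD, against 2.95, 4.04 and 3.69 in control. CKD replicates 2 and 3 were above every control and CKD replicate 1 was not, and the difference passed without CKD replicate 1 (limma adjusted p = 0.0240, against 0.318 with all libraries). Kremen1 encodes a receptor for Dickkopf proteins that helps to remove Lrp6 from the surface. It was 15.0, 8.64 and 9.41 FPKM in CKD, against 7.78, 8.01 and 8.02 in control. Every CKD library was above every control, but the spread within CKD was wide and the log2 fold change of 0.39 ± 0.20 (SE) did not pass (limma adjusted p = 0.310).

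The remaining antagonists were scarce. Wif1, which encodes a secreted inhibitor that binds Wnt proteins directly, stood at 0.631, 1.19 and 0.964 FPKM in CKD and at 0.644, 0.767 and 0.648 in control, with overlapping groups. Sfrp2, another decoy of the Sfrp family, had at most 13 fragments in any library, at 0.0131, 0.191 and 0.0940 FPKM in CKD and 0.0431, 0.0242 and 0.0528 in control. Dkk2 had no fragment in any CKD library, where 3 fragments would have been worth 0.0226 to 0.0282 FPKM, and 1, 6 and 1 fragments in control, or 0.00691, 0.0466 and 0.00846 FPKM. Neither Sfrp2 nor Dkk2 reached the filter, and no difference was tested.

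**Figure D3:**
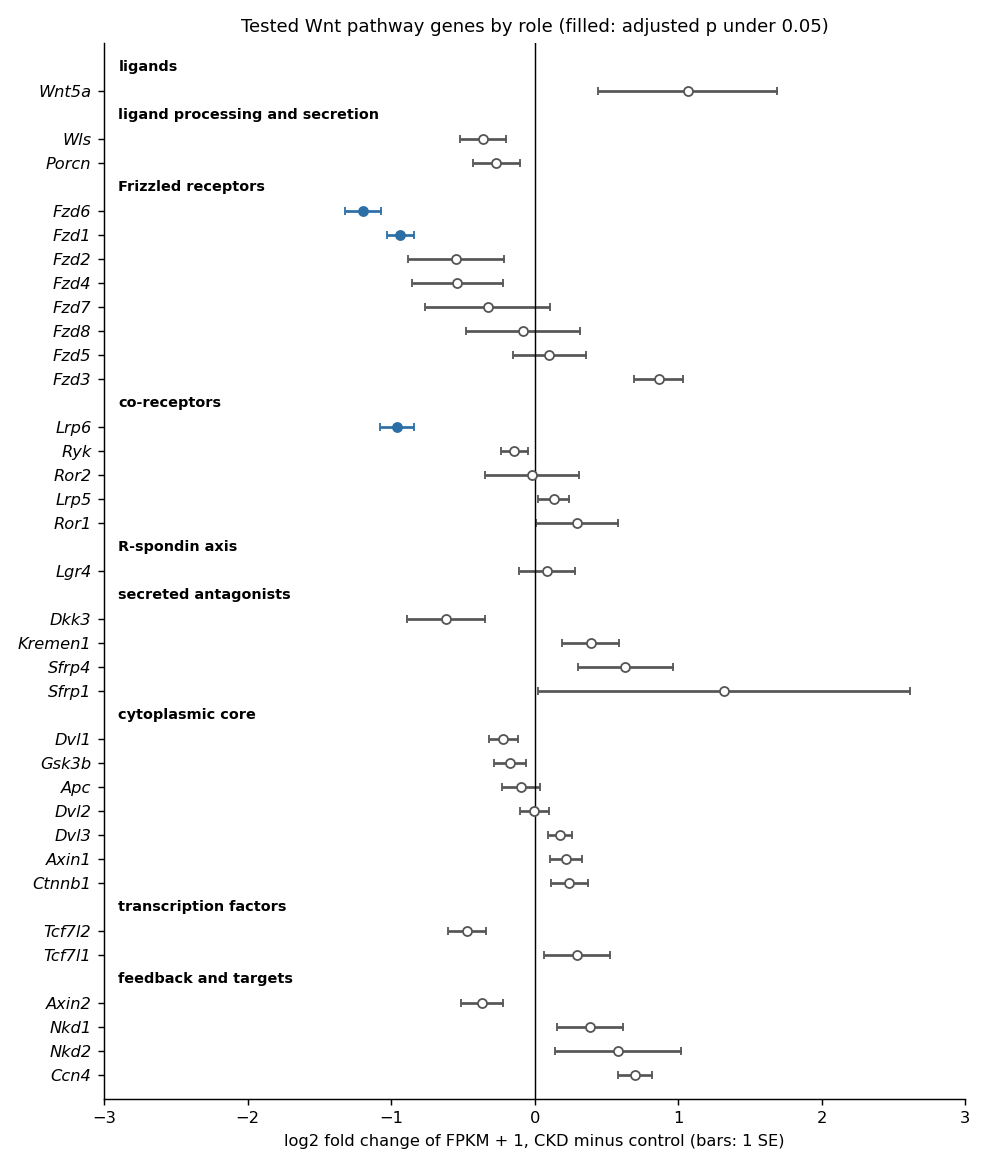
Each circle gives the log2 fold change of FPKM + 1, CKD minus control, for 1 of the 34 tested Wnt genes grouped by role, with bars of 1 SE, and filled circles mark an adjusted p under 0.05. The filled circles are Fzd6, Fzd1 and Lrp6, all lower in CKD, and Sfrp1 has the longest bar, with an SE of 1.29.

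The cytoplasmic genes had small differences. The 7 genes of this role had log2 fold changes from -0.22 to 0.24, 0 were called, 0 had an unadjusted limma p under 0.05, and the lowest limma adjusted p was 0.277. Ctnnb1, which encodes beta-catenin, stood at 99.7, 96.1 and 97.7 FPKM in CKD and at 100.01, 75.1 and 75.2 in control. Control replicate 1 had the CKD level, and the difference of 0.24 ± 0.13 (SE) passed when that library was left out (limma adjusted p = 0.0292, against 0.329). Among the genes of the destruction complex, the scaffold genes Axin1 (7.32 to 10.5 FPKM over all libraries) and Apc (5.44 to 7.91) and the kinase gene Gsk3b (17.1 to 23.5) overlapped between the groups. The Dishevelled genes, whose products relay the signal from Frizzled receptors, overlapped too, with Dvl1 at 7.75 to 10.7 FPKM, Dvl2 at 5.32 to 6.48 and Dvl3 at 10.9 to 14.1. The 95% interval of the log2 difference was narrow for Dvl2, from -0.26 to 0.25, and for Dvl3, from -0.04 to 0.39.

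Of the TCF/LEF factors, which carry beta-catenin to its target genes, Tcf7l2 was the most abundant. It was 3.93, 4.43 and 3.79 FPKM in CKD, against 4.93, 7.04 and 6.19 in control. The groups did not overlap, with control replicate 1 the nearest to CKD. The log2 fold change was -0.47 ± 0.13 (SE, limma adjusted p = 0.128), and it passed without control replicate 1 (limma adjusted p = 0.0318). The authors' deposited table lists Tcf7l2 as lower with a q-value of 0.00629. Tcf7l1, known mainly as a repressor, was 1.28 to 1.86 FPKM in CKD and 0.523 to 1.56 in control, with overlapping groups. Tcf7 did not reach the filter, at 0.310, 0.486 and 0.395 FPKM in CKD, against 0.208, 0.217 and 0.250 in control. All its CKD values were above all its control values, and the authors' deposited table gives a q-value of 0.0345 for Tcf7. Lef1 stood at 0.113, 0.0242 and 0.0145 FPKM in CKD and at 0.0975, 0.0199 and 0.0163 in control, highest in the first replicates, and the other 4 libraries held 3 or 4 fragments of it.

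The feedback and target genes did not share a direction. Ccn4, also known as Wisp1, encodes a matricellular protein and was found as a target of Wnt1. It stood at 70.1, 53.5 and 58.0 FPKM in CKD and at 38.9, 37.2 and 34.2 in control. Every CKD library was above every control, and the log2 fold change was 0.70 ± 0.12 (SE, limma adjusted p = 0.0513), just outside the threshold. It passed without CKD replicate 1 (limma adjusted p = 0.0192) and without control replicate 1 (limma adjusted p = 0.0386). The authors' deposited table gives a log2 fold change of 0.64 for Ccn4 with a q-value of 0.00468.

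Axin2, the most widely used readout of canonical signalling, had values in the opposite direction. Its levels were 1.05, 0.572 and 0.562 FPKM in CKD, against 1.02, 1.44 and 1.20 in control. The first replicates of both groups were alike, and the other CKD libraries were below all controls. The log2 fold change of -0.37 ± 0.15 (SE) did not pass (limma adjusted p = 0.218), but did without CKD replicate 1 (limma adjusted p = 0.0486). Nkd1 and Nkd2 encode inhibitors that bind Dishevelled. Nkd2 stood at 10.8 FPKM in control replicate 1 and at 31.3 to 41.7 in the other 5 libraries (limma adjusted p = 0.473), and Nkd1 ran from 0.955 to 2.38 FPKM in CKD and from 0.618 to 1.11 in control (limma adjusted p = 0.369).

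Both first replicates lay outside the range of the other 4 libraries for 14 of the 34 tested genes (41.2%), against 29.1% of all tested genes. They were lowest for 6 genes (18.2% of all tested genes), which were Wnt5a, Fzd4, Ror1, Sfrp1, Sfrp4 and Tcf7l1. They were highest for 8 (10.9% of all tested genes), which were Wls, Fzd5, Ror2, Lgr4, Dvl2, Apc, Gsk3b and Ctnnb1. CKD replicate 1 differed from control replicate 1 in the same direction as CKD replicates 2 and 3 differed from control replicates 2 and 3 for 21 of the 34 genes (61.8%), against 55% of all tested genes. The 13 genes with opposite directions included Fzd2, Fzd7, Fzd8, Dkk3, Axin2 and Nkd2. CKD replicates 2 and 3 stood apart from all controls while CKD replicate 1 did not for Wnt5a, Fzd2, Sfrp4, Dkk3 and Axin2, among others. These others included Sfrp1, Wls and Lgr4, and Axin1, Gsk3b and Dvl1 among the cytoplasmic genes. The number of genes with this pattern was not counted, among the 34 or among all tested genes. CKD replicates 2 and 3 also had the highest summed haematopoietic markers, at 1096 and 761 FPKM, whose part in these values was not tested. Without both first replicates, 8 Wnt genes were called higher and 13 lower, in a fit of 2 alike libraries against 2 that called 55% of all tested genes.

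**Figure D4:**
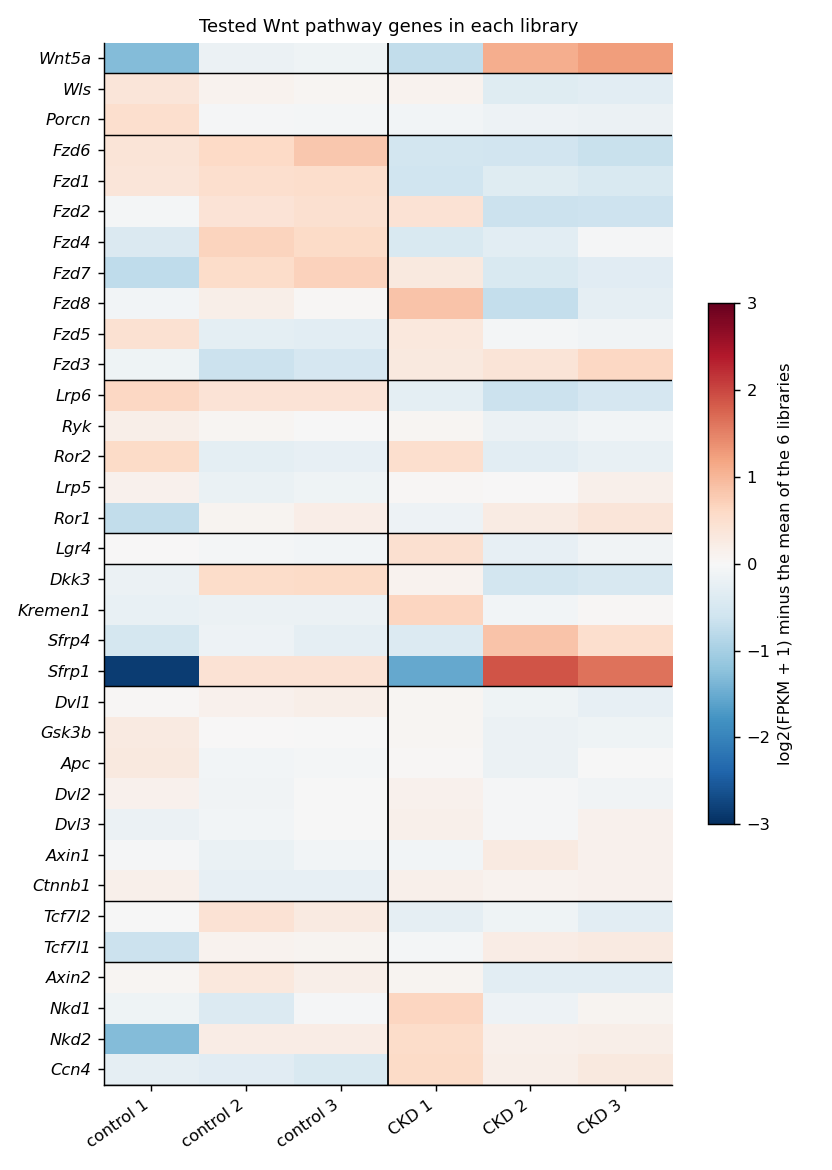
Colours give log2(FPKM + 1) of each tested Wnt gene minus its mean over the 6 libraries, with genes in rows grouped by role and libraries in columns. Fzd1, Fzd6 and Lrp6 split the columns at the line between control and CKD, whereas Sfrp1 and Wnt5a are lowest in control replicate 1 and CKD replicate 1.

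By the authors' deposited q-values, 8 of the 44 genes were under 0.05, against 11.3% of the 16690 genes in their table. Of these 4 were higher and 4 lower, against 6.72% and 4.6% of all genes. They were Fzd3, Rspo3, Tcf7 and Ccn4 on the higher side and Fzd1, Fzd6, Lrp6 and Tcf7l2 on the lower side. All 8 had groups that did not overlap, but q-value and overlap rest on the same libraries and are not separate evidence. The share without overlap among all genes with such a q-value was not counted.

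Outside these genes, a list of 99 other components of the pathway had 80 genes with a row and 59 tested. Of the 59, 0 were higher and 1 was lower in CKD (1.69% called, against 2.07% of all tested genes). An unadjusted limma p under 0.05 was reached by 15 of the 59 and by 22.1% of all tested genes. The median log2 fold change was 0.06, against 0.05 for all tested genes. The called gene was Dact3, whose family binds Dishevelled. It stood at 6.22, 5.70 and 5.43 FPKM in CKD and at 8.75, 9.88 and 9.29 in control, with no overlap (limma adjusted p = 0.0417, log2 fold change -0.60 ± 0.08 SE). It was 1 of 14 tested cytoplasmic regulators. Calls were 0 among 2 other ligands, 6 other receptors, 2 other secreted antagonists, 13 nuclear partners, 13 genes of planar polarity and the noncanonical arm and 9 other reported targets.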

How the data were processed

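RNA sequencing of 6 libraries, 3 CKD and 3 control, gave 1 deposited table. Per the file headers it holds FPKM values per library, and the authors' mean normalized count per group, fold change, log2 fold change, p-value and q-value. Its numbers have decimal commas. The submitters' processing notes name the build mRatBN7.2, DESeq 1.34.1 and DESeq2 1.22.2, HTSeq 0.11.2, HISAT2 2.1.0, FastQC 0.11.9 and SAMtools 1.9, without order or settings. Libraries were poly-A selected and stranded, per the labels' protocols.

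The 2 groups were compared on the scale log2(FPKM + 1), two-sided, without covariates, using limma 3.58.1 under R 4.3.3 and its trended prior variance, with Benjamini-Hochberg adjustment over all 10638 genes that reached 1 FPKM in at least 3 libraries. The threshold was 0.05. The fit was run on simulated libraries drawn independently of each other. Replicates 2 and 3 of each real group were nearly alike, so the simulation does not measure the error rate of the fit here. Fragment counts were recovered from the FPKM values and group means. All 100140 values came out whole within 0.01, and they were used for depth and for an alternative with limma-voom. Counting limits cover counting error only. Each Wnt gene in the table is named. Full statistics were set for those called and those with the next lowest p up to 8, and of the other pathway genes those called are named. The members, lists and tests were chosen with earlier results of these data known. Gene names are those of the table. Exact tests of 3 against 3 cannot go below p = 0.1. Alternatives changed the pseudocount (to 0.1), the filter, the scaling, the model, the libraries and the grouping.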

Additional observations from a re-analysis of the deposited data

How the results depend on the processing

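The counts of 0 higher and 3 lower Wnt genes were the same with a pseudocount of 0.1, without a filter, with a filter on the mean, with both rescalings and in limma-voom on recovered counts. Leaving out 1 library gave 0 to 3 higher and 0 to 5 lower. The number lower was 1 without both libraries with conflicting tags, 0 with groups by the disease model tag and 0 with libraries that share a name start averaged, where the limma adjusted p was 0.0703 for each of the 3. Without both first replicates, a setting chosen after seeing the data, 8 were higher and 13 lower. With the replicate number as a block, 1 was higher (Sfrp1, limma adjusted p = 0.0485) and 2 lower, and Fzd6 lost its call (limma adjusted p = 0.0651). CKD replicate 3 has the number 4 in its title, so its number for the block is itself uncertain. The labels do not say whether the numbers pair the libraries. Deviations from group means correlated at 0.0360, -0.0313 and 0.109 for numbers 1, 2 and 3. With 3 libraries per group these values cannot decide it, and CKD replicate 1 had its highest r with control replicate 1 (0.967). In the whole table the block left 60 higher and 28 lower genes, the averaged libraries 1 and 3, limma-voom 59 and 53, no filter 81 and 52 and the mean filter 55 and 44, against 142 and 78. The causes were not tested.

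Some uncalled log2 fold changes turned sign. With groups by the tag Kremen1 was -0.16, Ctnnb1 -0.029, Fzd4 0.20, Nkd1 -0.32, Lrp5 -0.024, Lgr4 -0.27 and Fzd5 -0.31. Without the conflicting libraries Lgr4 was -0.14 and Fzd5 -0.16, and without both first replicates Nkd2 was -0.054 (0.073 to 0.84 when 1 library was left out), Lgr4 -0.11 and Ror2 0.00032. Leaving out 1 library at a time gave -0.16 to 0.023 for Apc, -0.13 to 0.23 for Lgr4, -0.037 to 0.36 for Fzd5, -0.53 to 0.25 for Fzd8 (-0.59 without both first replicates), -0.28 to 0.26 for Ror2 and -0.070 to 0.063 for Dvl2. Wnt11, Dkk2, Sfrp2, Lef1 and Rspo3 rest on few fragments, which limits their precision.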

Other observations

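Among pathway genes outside the 47, a few had large values in single libraries, and they are named after their values were seen. Wnt16, a ligand that protects cortical bone in mice, stood at 39.1 FPKM in control replicate 1, at 1.42 in CKD replicate 1 and at 0.105 to 0.490 in the other 4 libraries. It was the highest Wnt ligand in control replicate 1, above Wnt5a at 4.76 FPKM. Values in CKD and in control are listed in the order of replicates 1, 2 and 3. Ccn5, a relative of Ccn4 without its last domain, had 240, 142 and 135 FPKM in CKD, against 55.9, 441 and 429 in control, so that control replicate 1 was the lowest library and the other controls the highest.

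Rspo1, an R-spondin, was more abundant than Rspo3 in every library, at 17.6, 6.84 and 8.65 FPKM in CKD, against 15.1, 30.4 and 33.7 in control (limma adjusted p = 0.183, log2 fold change -1.21 ± 0.43 SE). Ptk7, a receptor of planar polarity, was 113, 91.9 and 88.4 FPKM in CKD and 65.9, 37.1 and 37.6 in control. Every CKD library was above every control (limma adjusted p = 0.0929, log2 fold change 1.09 ± 0.25 SE).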
